A study of Homo sapiens with 14 samples.

Results

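The 6 receptor genes FGFR4, ALK, IGF1R, MET, CXCR4 and PDGFRA were followed through ATAC-seq peak lists of 14 libraries, as windows of hg19 chosen for being around genes driven in alveolar rhabdomyosarcoma. The windows were chr5:176480000-176550000 (FGFR4), chr2:29400000-30200000 (ALK), chr15:99150000-99550000 (IGF1R), chr7:116290000-116460000 (MET), chr2:136840000-136940000 (CXCR4) and chr4:55050000-55200000 (PDGFRA). They held 1781 of the 1971391 peaks in the lists and 280 of the 335269 regions that the merged lists gave. ALK had 108 of these regions and 614 peaks, IGF1R 75 and 569, MET 42 and 241, FGFR4 25 and 223, PDGFRA 16 and 63, and CXCR4 14 and 71. The windows differ in length, and no annotation of hg19 was used here, so no region below is placed in a promoter, exon or intron or assigned to a gene, and a window can hold DNA that serves a neighbouring gene.

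ATAC-seq marks open chromatin by cutting it with the transposase Tn5, and each library here came from 100000 cells. RH30 is an established alveolar rhabdomyosarcoma line that carries the fusion gene PAX3-FOXO1, and LHCN is an immortalised human myoblast line. The 7 groups had 2 libraries each, all taken after 72 h: RH30 with 200 nM QC6352, an inhibitor of KDM4 histone demethylases, and RH30 with 0.1% DMSO; RH30 transduced with shKDM4B-813, with shKDM4B-814 or with the control hairpin shCtrl; and LHCN overexpressing PAX3-FOXO1 or an empty vector. All RH30 groups therefore carried the fusion already, and each line was 1 line, so the 10 RH30 and 4 LHCN libraries do not stand for more tumours or more donors. LHCN was grown with added basic FGF, HGF and dexamethasone and RH30 was not, so that line and medium cannot be told apart. No label ties a replicate to a culture of its own, so a p-value below covers the spread among these libraries alone, and that spread may be technical.

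The 6 hairpin lists contradicted their labels. Each peak in a list carries a name given by the peak caller, and in the libraries labelled shCtrl every peak was named for sh813, in those labelled shKDM4B-813 for sh814, and in those labelled shKDM4B-814 for shCtrl. The names matched the labels in the other 8 lists. In lists cut to 93488 peaks, the share of regions in common with the DMSO libraries (Jaccard index) averaged 0.572 for the libraries labelled shKDM4B-814, 0.530 for those labelled shKDM4B-813 and 0.449 for those labelled shCtrl, against 0.652 between the DMSO libraries themselves. Between the 2 libraries of a label, this share was 0.553 for shCtrl, 0.657 for shKDM4B-813 and 0.5999 for shKDM4B-814. It was 0.549 between the QC6352 libraries, the lowest of the 7 groups. Which of labels and names is right was not tested, and these shares do not decide it. The libraries are called by their labels below, and the hairpin counts are given under both readings.

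Of these genes 5 encode receptor tyrosine kinases, which bind a growth factor outside the cell and phosphorylate signalling proteins inside it. CXCR4 is a G protein-coupled receptor for the chemokine CXCL12 that guides cell migration. FGFR4 binds fibroblast growth factors and is expressed in regenerating muscle, ALK is a receptor of the developing nervous system, IGF1R binds insulin-like growth factors, MET binds hepatocyte growth factor and is needed for muscle precursors to migrate into the limb, and PDGFRA binds platelet-derived growth factor in mesenchymal cells. PAX3-FOXO1 joins the DNA-binding domains of PAX3, which recognise paired and homeodomain motifs, to the activation domain of FOXO1, and FGFR4 and ALK are among its known targets in this tumour. It often binds beside the myogenic factors MYOD1 and MYOG, whose E-box motif is CAGCTG.

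The sequences of 4 of the receptor promoters are shown as examples with the E-box letters (ALK, PDGFRA) and without them (FGFR4, CXCR4). They are the 250 bases before a RefSeq start of each gene in GRCh38.p14, 5′ to 3′, with the E-box CAGCTG in capitals. Their coordinates are of that build and cannot be set against the hg19 positions of the peaks.

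FGFR4, chr5:177086665-177086914, plus strand: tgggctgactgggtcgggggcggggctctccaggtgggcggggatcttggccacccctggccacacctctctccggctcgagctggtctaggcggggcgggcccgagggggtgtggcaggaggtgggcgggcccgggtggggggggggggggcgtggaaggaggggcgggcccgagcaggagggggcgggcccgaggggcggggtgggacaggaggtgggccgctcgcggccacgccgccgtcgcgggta
ALK, chr2:29921587-29921836, minus strand: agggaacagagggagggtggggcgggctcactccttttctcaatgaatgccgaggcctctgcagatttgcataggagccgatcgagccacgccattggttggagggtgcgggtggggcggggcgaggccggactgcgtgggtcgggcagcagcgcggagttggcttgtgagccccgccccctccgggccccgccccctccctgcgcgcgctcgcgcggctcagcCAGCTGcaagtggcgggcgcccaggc
CXCR4, chr2:136118150-136118399, minus strand: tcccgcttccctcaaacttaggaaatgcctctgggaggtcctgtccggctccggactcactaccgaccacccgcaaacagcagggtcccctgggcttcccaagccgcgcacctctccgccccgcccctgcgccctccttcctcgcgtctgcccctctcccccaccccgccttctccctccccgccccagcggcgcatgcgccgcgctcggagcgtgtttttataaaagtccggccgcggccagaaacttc
PDGFRA, chr4:54233710-54233959, plus strand: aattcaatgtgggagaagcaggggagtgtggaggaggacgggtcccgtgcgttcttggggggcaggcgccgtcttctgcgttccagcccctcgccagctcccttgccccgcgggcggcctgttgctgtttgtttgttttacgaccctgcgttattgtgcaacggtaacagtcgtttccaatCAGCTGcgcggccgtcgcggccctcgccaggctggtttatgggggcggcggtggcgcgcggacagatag

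All 6 genes had a RefSeq promoter, 11 starts in all. The E-box, which reads the same on both strands, was in 2 of the 11, the printed ones of ALK and PDGFRA, beside 13.99% of 35116 RefSeq promoters of this length. The pair of homeodomain half-sites TAATNNATTA, also its own complement, was in 0 of the 11, beside 0.399% of all. A match in these letters is a description only, and no match says only that the letters are not in this stretch.

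To compare libraries whose lists ran from 93488 to 176899 peaks, lists were cut to equal length by the authors' −log10 q, and a library counted as having a region when a peak overlapped it by at least 1 base. Strength is given as a within-list percentile, where 100 is the strongest peak of a library's list of 93488. In these lists 21 of the 280 regions had a peak in all 14 libraries, and 84 had a peak in none, being present only in the longer lists. The regions found in all 14 were spread over IGF1R (9), ALK (5), FGFR4 (4) and MET (3). CXCR4 and PDGFRA had 0.

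**Figure D1:**
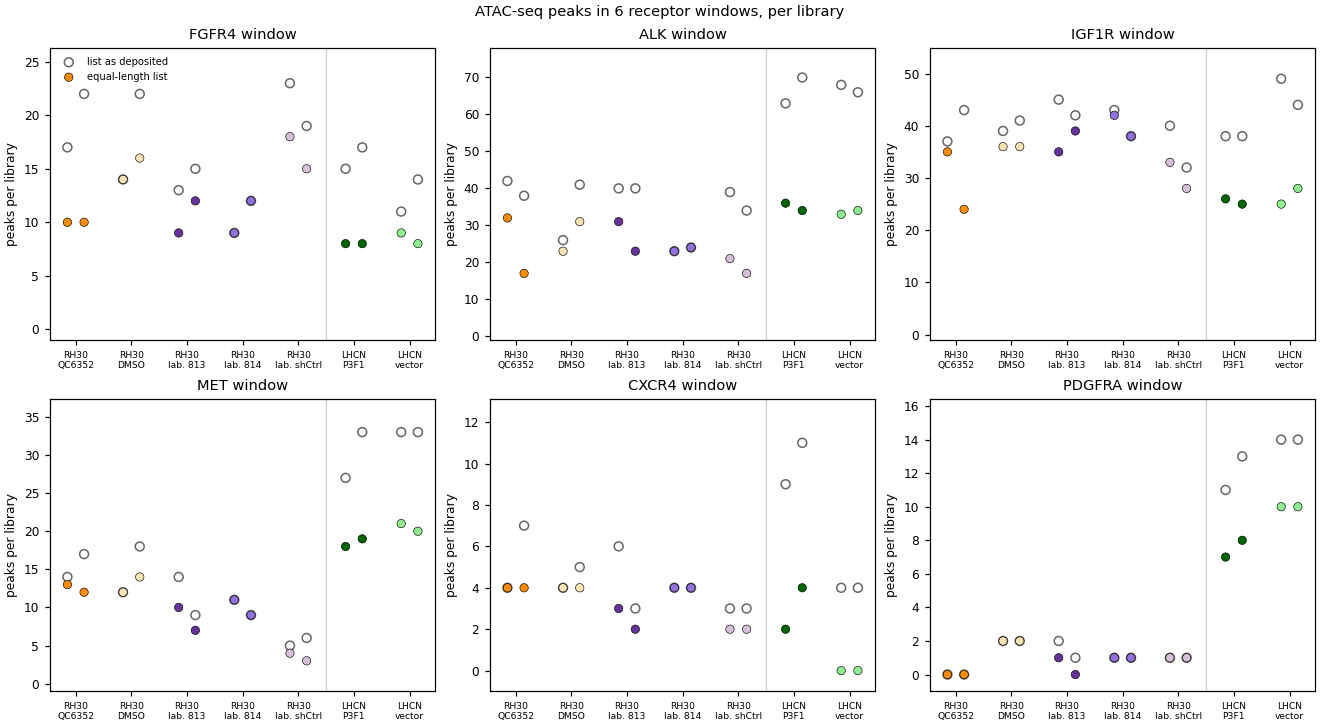
Number of ATAC-seq peaks (y axis) in each receptor window for the 14 libraries (x axis, 2 points per group), in the list as deposited (open) and in lists of 93488 peaks (filled). RH30 libraries had 0 to 2 peaks of the equal-length lists in the PDGFRA window and LHCN libraries 7 to 10, and the libraries labelled shCtrl had 4 and 3 in the MET window.

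The FGFR4, ALK, IGF1R and MET windows each had strong sites present in both lines, such as FGFR4 region 13, ALK region 57, IGF1R regions 22 and 55 and MET region 16, and the windows differed in how many peaks each line had. In lists of equal length the PDGFRA window had 0 to 2 peaks (median 1) in RH30 libraries, against 7 to 10 (median 9) in LHCN libraries. The MET window had 3 to 14 peaks (median 10.5) in RH30, against 18 to 21 (median 19.5) in LHCN, and the ALK window 17 to 32 (median 23) in RH30, against 33 to 36 (median 34) in LHCN. In these 3 windows the lines did not overlap. How often other windows separate the lines in this way was not worked out, so it is not shown to be particular to these. FGFR4 had 9 to 18 peaks (median 12) in RH30 and 8 to 9 (median 8) in LHCN, which touch at 9. IGF1R had 24 to 42 (median 35.5) in RH30 and 25 to 28 (median 25.5) in LHCN, and CXCR4 had 2 to 4 (median 4) in RH30 and 0 to 4 (median 1) in LHCN, with overlap in both.

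Region by region, 28 regions of the 196 testable in the windows passed Fisher's exact test between the lines (two-sided, Benjamini-Hochberg adjustment over 241898 regions). More RH30 than LHCN libraries had a peak in 4 (2.04%), beside 2.73% of all regions, and fewer in 24 (12.2%), beside 7.35% of all regions. The regions with fewer RH30 libraries lay in ALK (11 of 69 tested), MET (6 of 28), PDGFRA (5 of 11) and IGF1R (2 of 58). Those with more lay in IGF1R (3) and ALK (1). FGFR4 (21 tested) and CXCR4 (9 tested) had 0 of either kind by this test; at an unadjusted p under 0.05 the 6 windows had 11 and 32 regions. The smallest adjusted p that 10 against 4 libraries gave was 0.0135. Without the 6 hairpin libraries the smallest adjusted p of Fisher's exact test was 0.214 and no region could pass. By presence alone 4 regions then had a peak in all 4 RH30 libraries and no LHCN library, and 23 the reverse. The unadjusted and the presence counts have no share over all regions beside them, so they show no excess in the windows.

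IGF1R region 30 (chr15:99328808-99329599) was the clearest RH30 site of the 6 windows. Its percentile ran from 84.0 to 96.2 (median 93.1) in the 10 RH30 libraries, and no LHCN list had a peak there even as deposited (adjusted p = 0.0135 by Fisher's exact test). IGF1R region 13 (chr15:99243305-99244134) had percentiles of 28.9 to 95.0 (median 90.8) in RH30. In LHCN it appeared only among the weak peaks left out at equal length, with the authors' fold values of 6.46 and 5.72 with PAX3-FOXO1 and 5.32 in 1 of the vector libraries (adjusted p = 0.0135, Fisher's exact test). IGF1R region 23 (chr15:99272733-99273128) was weaker, 24.0 to 72.6 (median 54.8) in RH30, with the same test result and weak deposited peaks in 2 LHCN libraries. The fourth was ALK region 22 (chr2:29533485-29534278), found in 9 RH30 libraries at 26.3 to 77.7 and in no LHCN list of equal length, with an adjusted p of 0.0495 by Fisher's exact test; 3 LHCN lists held a weak peak there.

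The strongest IGF1R sites stood in every library but in another order. IGF1R region 55 (chr15:99433100-99434580) had percentiles of 94.0 to 99.8 (median 99.2) in RH30 and 77.2 to 87.2 (median 82.9) in LHCN. IGF1R region 58 (chr15:99439978-99441007) ran from 54.7 to 84.6 (median 73.3) in RH30 and from 93.0 to 97.7 (median 95.5) in LHCN. Neither pair of ranges overlapped, in opposite directions. The share of all regions whose ranges separate the lines was not worked out. IGF1R region 22 (chr15:99270485-99271965) was near the top everywhere, at 93.2 to 99.4 in RH30 and 99.2 to 99.5 in LHCN.

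PDGFRA was the window with least open chromatin in RH30. PDGFRA region 7 (chr4:55098950-55099898) had no peak in any RH30 list, deposited or cut, against percentiles of 70.2 and 74.2 in LHCN with PAX3-FOXO1 and 80.3 and 80.9 with vector. PDGFRA region 13 (chr4:55147214-55147936) likewise had none in RH30, against 52.5 and 54.8 in LHCN with PAX3-FOXO1 and 87.3 and 84.5 with vector. Regions 5, 8 and 12 of this window showed the same absence from all RH30 lists, and all 5 had an adjusted p of 0.0135 by Fisher's exact test. PDGFRA region 14 (chr4:55149024-55149397) was the RH30 peak found most often, in 7 of the 10 libraries at 36.5 to 62.6.

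For MET the 2 leading sites were shared and the rest differed. MET region 16 (chr7:116356580-116357465) had percentiles of 95.4 to 99.0 in RH30 and 99.4 to 99.8 in LHCN, and MET region 4 (chr7:116311558-116313320) 84.4 to 97.6 in RH30 and 95.9 to 98.7 in LHCN. MET regions 5, 9, 14, 28, 35 and 37 had a peak in 0 of 10 RH30 and 4 of 4 LHCN libraries at equal length. Among them MET region 14 (chr7:116353778-116354551) was the strongest, at 16.5 and 41.2 with PAX3-FOXO1 and 79.1 and 73.7 with vector in LHCN. Weak deposited RH30 peaks stood in regions 5, 35 and 37, in 1 library each.

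ALK had the strongest single shared site of its window in region 57 (chr2:29751290-29752793), at 94.1 to 99.4 (median 98.3) in RH30 and 98.3 to 99.4 in LHCN. The myoblast-only ALK sites included region 44 (chr2:29682684-29683036), region 66 (chr2:29850255-29850629) and region 69 (chr2:29854757-29855222). Region 69 had percentiles of 72.2 and 73.9 with PAX3-FOXO1 and 81.3 and 72.5 with vector in LHCN, and was in no RH30 list even as deposited. ALK region 105 (chr2:30142836-30145587) was in all 14 libraries, at 75.4 to 96.6 (median 87.9) in RH30 and 50.5 to 67.7 (median 64.8) in LHCN, with no overlap. Here too no share over all regions stands beside the lack of overlap.

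FGFR4 region 13 had the highest mean percentile of its window in both lines, and the next differed, region 16 in RH30 and region 14 in LHCN. FGFR4 region 13 (chr5:176524137-176526832) ran from 71.9 to 98.6 (median 96.0) in RH30 and from 91.5 to 93.8 (median 93.1) in LHCN, and FGFR4 region 14 (chr5:176527232-176528388) from 73.5 to 93.4 in RH30 and from 82.6 to 87.4 in LHCN. Both pairs of ranges overlapped. The site that set RH30 apart from vector cells, FGFR4 region 16, was also in the 2 PAX3-FOXO1 libraries, so it did not pass the test between the lines (adjusted p = 0.285, Fisher's exact test).

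CXCR4 had 2 main RH30 sites side by side. CXCR4 region 8 (chr2:136876484-136877408) ran from 51.0 to 89.6 (median 66.2) in the 10 RH30 libraries, against 36.2 and 17.5 in LHCN with PAX3-FOXO1 and no peak at equal length with vector. CXCR4 region 7 (chr2:136873647-136876276) ran from 11.2 to 86.5 (median 58.7) in RH30 and was at 21.5 in 1 PAX3-FOXO1 library. Neither passed the test between the lines (adjusted p = 0.285 and 0.0884, Fisher's exact test), and both vector libraries had weak deposited peaks in each.

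**Figure D2:**
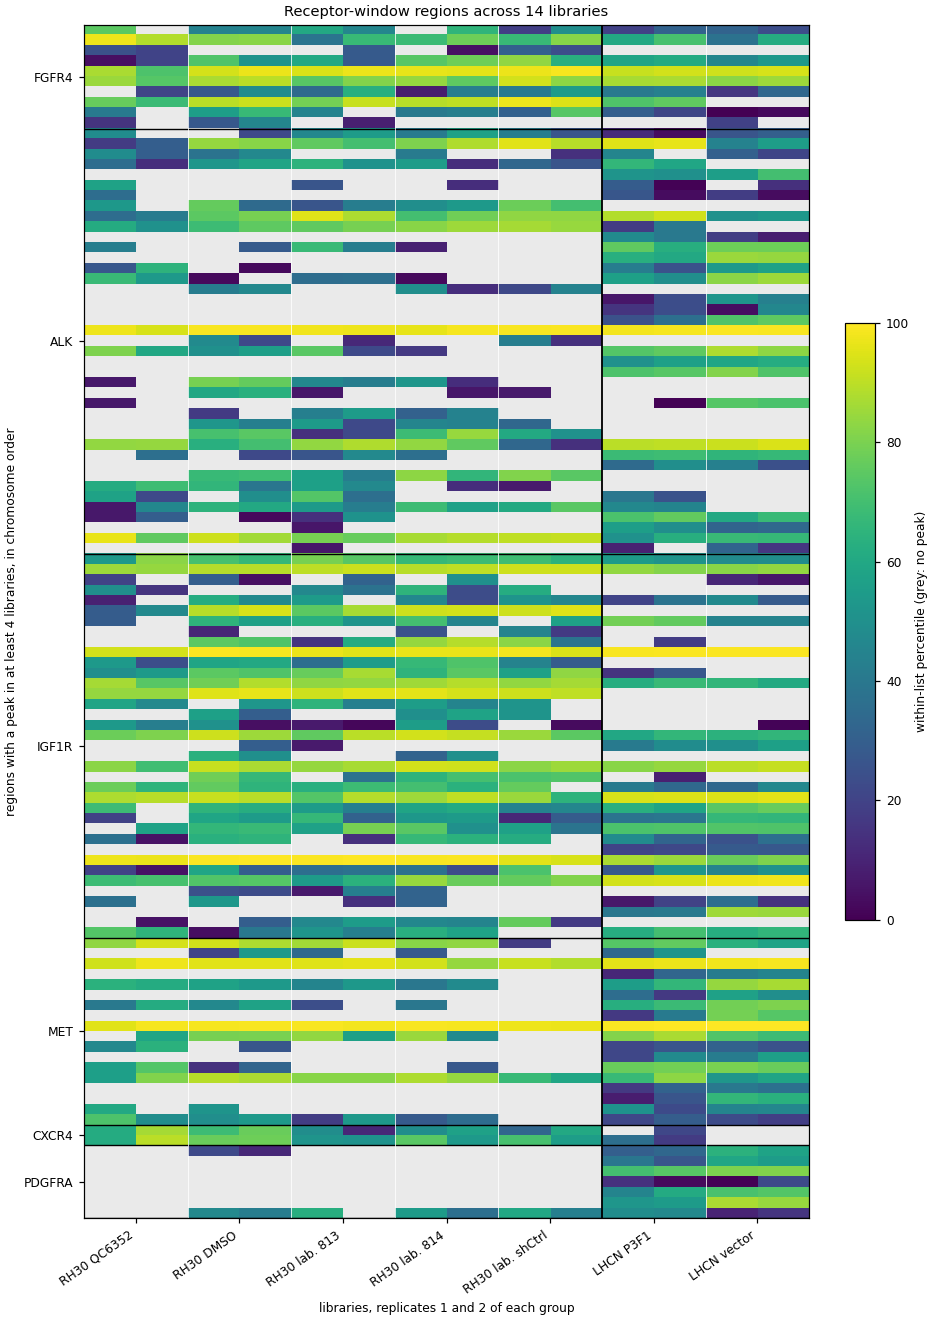
Within-list percentile (colour, 100 strongest; grey, no peak) of the 115 receptor-window regions with a peak in at least 4 of the 14 libraries (rows, in chromosome order within each window) across the libraries (columns). RH30 columns are left of the black line, and the PDGFRA rows are grey there but for 2 of its 7 regions.

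Myoblasts with overexpressed PAX3-FOXO1 had 1 strong site in the FGFR4 window, and others in ALK and IGF1R, that vector cells lacked and RH30 has. FGFR4 region 16 (chr5:176531890-176533492) had percentiles of 72.6 and 75.5 with PAX3-FOXO1 and no peak with vector, not even a weak deposited one. The authors' fold values there were 20.7 and 28.9. All 10 RH30 libraries had this region, from 68.3 to 97.5 (median 90.0). With 2 libraries against 2 no p below 0.333 is possible, so regions were called without a test: gained when both PAX3-FOXO1 and no vector libraries had a peak in lists of 170390, lost in the reverse case.

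Across the windows 21 of 223 regions were gained (9.42%), beside 8.14% of all regions, and 16 were lost (7.17%), beside 8.48% of all. The counts in the windows are thus near those of the genome. How they spread over the windows was not tested, and the small windows rest on few regions, some of them weak. Gains came in ALK (10 of 89), FGFR4 (3 of 14), MET (3 of 40), CXCR4 (3 of 10), IGF1R (1 of 54) and PDGFRA (1 of 16). Losses came in ALK (7), IGF1R (6), MET (2) and PDGFRA (1), with 0 in FGFR4 and CXCR4. Of the 21 gained regions 13 (61.9%) had a peak in at least 1 RH30 library, and of the 16 lost regions 2 (12.5%). Over the whole series these shares were 45.0% and 14.2%.

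Of the gained regions 5 were in all 10 RH30 libraries: FGFR4 region 16, ALK regions 14, 35 and 94, and IGF1R region 28. ALK region 14 (chr2:29485621-29486201) had percentiles of 66.2 and 59.0 with PAX3-FOXO1, none with vector, and 13.1 to 64.7 (median 43.4) in RH30. ALK region 94 (chr2:30044355-30044845) had 46.7 and 45.2 with PAX3-FOXO1, none with vector, and 6.58 to 74.5 (median 58.8) in RH30. ALK region 35 (chr2:29621388-29622085) had 17.5 and 40.5 with PAX3-FOXO1 and 50.4 to 86.7 (median 77.5) in RH30, with 1 weak deposited vector peak of fold 3.87. IGF1R region 28 (chr15:99319912-99320529) had 15.2 and 27.2 with PAX3-FOXO1 and 49.4 to 86.9 (median 73.4) in RH30, none with vector. The last 2 were stronger in every RH30 library than in either PAX3-FOXO1 library.

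The other 16 gains were seldom in the lists of 93488: 2 had a peak there in both PAX3-FOXO1 libraries, 2 in 1 of them and 12 in neither. ALK region 93 (chr2:30034272-30034645) was the strongest, at 39.6 and 25.3 with PAX3-FOXO1, none with vector, and it had a peak in 5 RH30 libraries. CXCR4 region 5 (chr2:136871970-136872262) had 6.01 and 33.5 with PAX3-FOXO1. ALK region 98 (3.30) and CXCR4 region 6 (0.377) were in 1 PAX3-FOXO1 list. The 12 outside were ALK regions 22, 61, 78, 90 and 91, FGFR4 regions 10 and 11, MET regions 24, 25 and 27, CXCR4 region 10 and PDGFRA region 1. FGFR4 regions 10 and 11 had folds of 5.17 and 5.43, and of 4.91 and 5.43, with PAX3-FOXO1. Of the 16 lost regions 2 were in both vector lists of 93488, 1 was in 1 of them and 13 in neither. ALK region 12 (chr2:29482075-29482421) was the highest of them, with no peak with PAX3-FOXO1, against 45.4 and 28.7 with vector.

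Regions that stayed open could still move within the list. A shift of at least 20 percentile points between all libraries of the groups, a rule chosen after the values were seen, was met upwards by 5 of the 76 window regions found in every LHCN library and downwards by 10, beside 6.16% and 5.99% of all such regions. ALK region 7 (chr2:29450803-29452252) had 94.9 and 96.4 with PAX3-FOXO1, against 44.5 and 55.6 with vector. ALK region 33 (chr2:29583995-29584608) had 88.4 and 92.7 with PAX3-FOXO1, against 50.7 and 53.5 with vector. Both are in all RH30 libraries too. The downward shifts included ALK region 44 (63.1 and 60.5 with PAX3-FOXO1, 85.0 and 84.3 with vector), PDGFRA region 13 and MET region 14 given above, and IGF1R region 63 (chr15:99457785-99458335; 39.8 and 40.6 with PAX3-FOXO1, 85.8 and 84.8 with vector). These 4, ALK regions 49 and 56 and MET region 37 were absent from RH30 at equal length, 7 of the 10. The other 3 were not: IGF1R region 47 was in 9 RH30 libraries, ALK region 46 in 6 and PDGFRA region 4 in 2, both DMSO. Of the 5 upward shifts 4 were in some RH30 library, and ALK region 37 (48.0 and 40.4 with PAX3-FOXO1, 18.2 and 7.84 with vector) was in none. These counts of presence in RH30 have no share over all shifted regions beside them, so they show nothing particular to the windows.

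**Figure D3:**
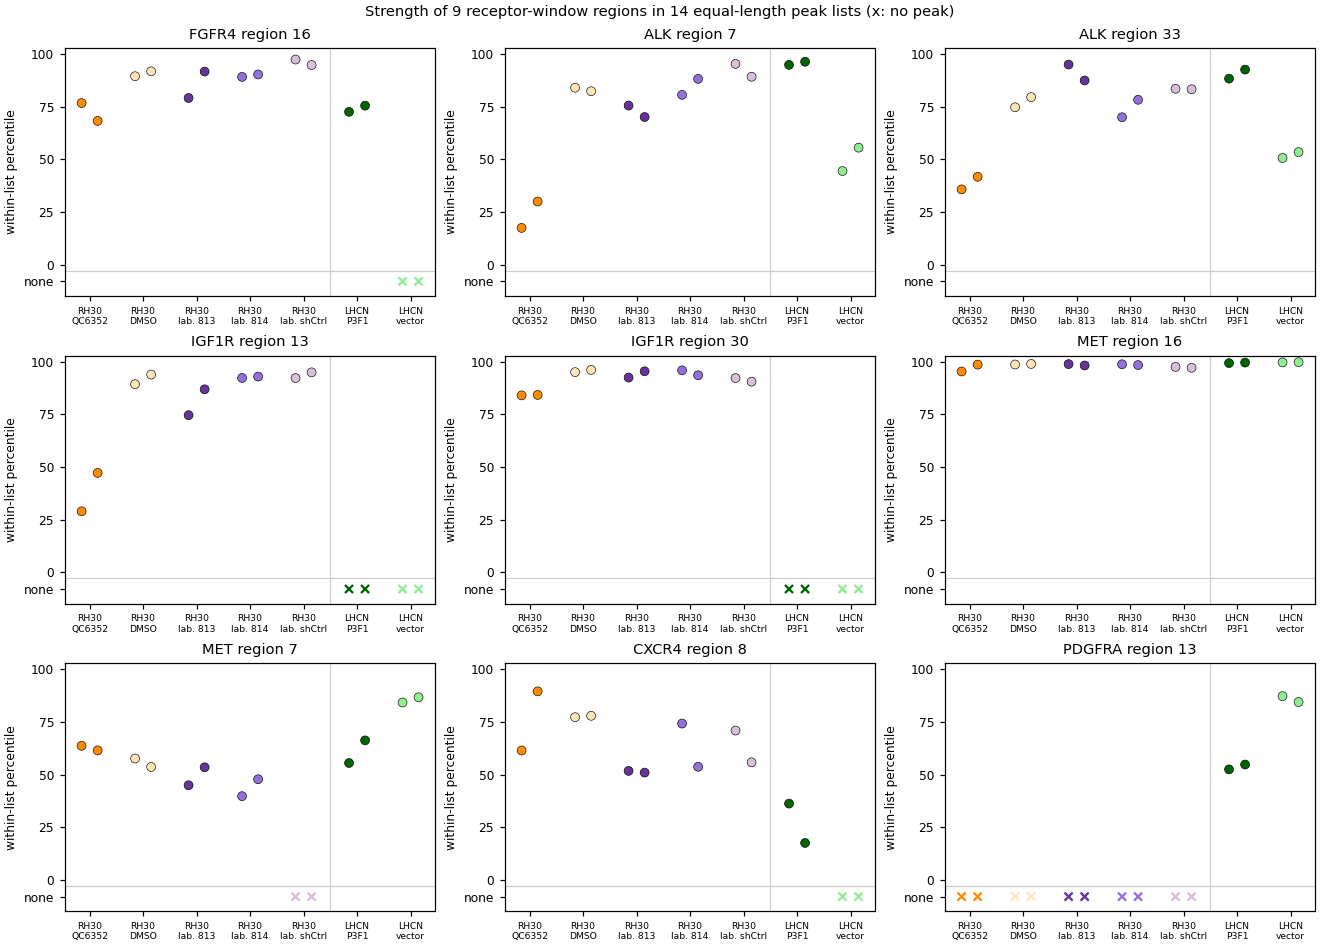
Within-list percentile (y axis, 100 strongest; cross, no peak at equal length) of 9 receptor-window regions in the 2 libraries of each group (x axis), with hairpin groups by label. FGFR4 region 16 has a peak with PAX3-FOXO1 and none with vector, ALK regions 7 and 33 are higher with PAX3-FOXO1 than with vector and lower with QC6352 than with DMSO, and PDGFRA region 13 is in LHCN alone.

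With QC6352, single strong sites of ALK and IGF1R ranked far lower in RH30 but kept a peak. ALK region 7 had percentiles of 17.4 and 30.0 with QC6352, against 84.1 and 82.4 with DMSO, and 70.1 to 95.4 in the 6 hairpin libraries. ALK region 33 had 35.7 and 41.7 with QC6352, against 74.8 and 79.6 with DMSO. IGF1R region 13 had 28.9 and 47.2 with QC6352, against 89.4 and 93.9 with DMSO. In all 3 the QC6352 libraries were the lowest of the 10 RH30 libraries. FGFR4 region 12 (chr5:176521187-176523847), at 4.17 and 20.2 with QC6352 against 72.6 and 51.5 with DMSO, and IGF1R region 53 (chr15:99424737-99425107), at 37.1 and 4.88 against 63.5 and 65.2, completed the 5 downward shifts among the 44 window regions found in all 4 libraries. IGF1R region 74 and MET region 29 shifted up. Of all such regions 4.88% shifted down and 4.59% up. None of this was tested, for want of replicates.

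ALK regions 7 and 33 were thus up with PAX3-FOXO1 in LHCN and down with QC6352 in RH30, the 2 comparisons having no library in common. ALK regions 7 and 33 were the only window regions up with the fusion among the 31 that all LHCN and all compound libraries shared. Over the series 156 of 1702 such fusion-up regions (9.17%) went down with QC6352, beside 1130 of all 30581 shared regions (3.70%). Another 83 of the 1702 went up, with no share over all shared regions beside them. The regions were not matched for starting strength, and the cause of the difference in shares was not tested.

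By presence, in lists of 105136, 16 of 155 window regions were lost with QC6352 (10.3%), beside 7.38% of all regions, and 5 were gained (3.23%), beside 6.39% of all. In lists of 93488 the QC6352 libraries shared a smaller part of their regions (Jaccard index 0.549) than the DMSO libraries did (0.652). Whether this moved the counts was not tested. The losses were in ALK (6), IGF1R (4), FGFR4 (2), PDGFRA (2), MET (1) and CXCR4 (1). ALK region 80 (chr2:29965231-29965846) had no peak with QC6352, not even a weak one, against 70.8 and 74.5 with DMSO. ALK region 91 (chr2:30010851-30011376) had none at equal length with QC6352, against 67.2 and 68.9 with DMSO. Of the 21 fusion-gained window regions it was the only 1 lost with QC6352, and 2 were gained, FGFR4 region 11 and CXCR4 region 10. Over the series 1049 of 18498 fusion-gained regions were lost with QC6352 and 339 were gained. IGF1R region 19 (chr15:99261497-99262274) had none with QC6352, against 74.9 and 72.6 with DMSO, and IGF1R region 41 (chr15:99381820-99382289) none, against 78.2 and 66.6. The PDGFRA window had 0 peaks in both QC6352 lists as deposited, against 2 in each DMSO list, region 4 at 22.2 and 11.0 and region 14 at 47.2 and 42.5.

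Other strong sites kept a peak with QC6352. FGFR4 region 16 had 76.8 and 68.3 with QC6352, against 89.5 and 91.9 with DMSO, and FGFR4 region 13 had 87.2 and 71.9, against 93.6 and 97.2. IGF1R region 30 had 84.0 and 84.3 with QC6352, against 95.1 and 96.2 with DMSO. Each of these 3 was lower in both QC6352 libraries and did not meet the 20-point rule. Of the 3 other regions that passed the line test for RH30, IGF1R region 13 ranked lower as given above. IGF1R region 23 had 54.2 and 24.0 with QC6352, against 58.6 and 60.5 with DMSO. ALK region 22 had 53.5 in 1 QC6352 library and no peak in the other, against 76.5 and 34.8 with DMSO. FGFR4 region 8 (chr5:176512962-176514981) went the other way, at 97.3 and 88.3 with QC6352, against 81.5 and 82.2 with DMSO. CXCR4 regions 7 and 8 overlapped between the groups, with region 8 at 61.5 and 89.6 with QC6352 and 77.3 and 78.0 with DMSO. The only CXCR4 gain, region 10 (chr2:136891145-136891456), had 53.3 and 70.6 with QC6352 and no peak with DMSO, and was also one of the gains with PAX3-FOXO1 outside the lists of 93488.

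**Figure D4:**
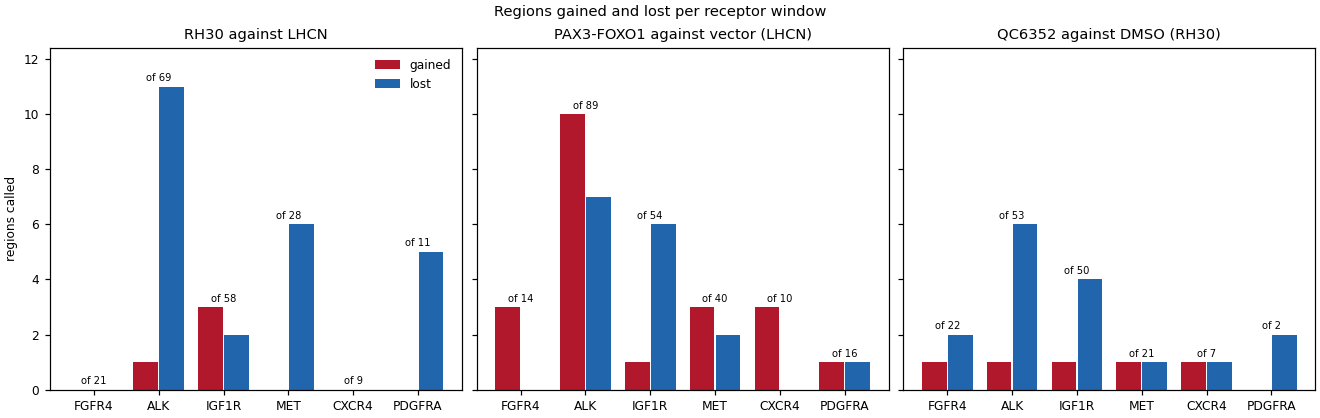
Number of regions called (y axis) in each receptor window (x axis) for RH30 against LHCN (Fisher's exact test, adjusted), PAX3-FOXO1 against vector and QC6352 against DMSO (presence in both libraries of one group and neither of the other, no test), gained in red and lost in blue, with the number of regions tested above. PDGFRA has 5 of 11 regions lost in RH30, beside 7.35% of all regions. With PAX3-FOXO1, FGFR4 has 3 of 14 gained, beside 8.14% of all regions, and 0 lost, beside 8.48%. Of these 3 gains only FGFR4 region 16 has a PAX3-FOXO1 peak in the lists of 93488. How the counts spread over the windows was not tested.

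The hairpin comparisons turned on which list was taken as the control. By the labels, the libraries labelled shKDM4B-813 had 13 of 108 window regions gained over those labelled shCtrl (12.0%), beside 13.0% of all regions, and 2 lost (1.85%), beside 7.50% of all. Those labelled shKDM4B-814 had 8 of 106 gained (7.55%), beside 7.04% of all, and 1 lost (0.943%), beside 6.30% of all. In all, 6 of 118 regions were gained in all 4 labelled hairpin libraries (5.08%), beside 3.64% of all, and 0 were lost, beside 4.22%; with 4 libraries against 2 no adjusted test was made. The 6 were MET regions 7, 19 and 40, ALK regions 72 and 78 and IGF1R region 74.

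The MET gains came from absence in the libraries labelled shCtrl, not from presence under 1 hairpin. MET region 7 (chr7:116327744-116328318) had 44.9 and 53.5 in the libraries labelled shKDM4B-813 and 39.7 and 47.8 in those labelled shKDM4B-814, against no peak in those labelled shCtrl, even as deposited. QC6352 libraries had 63.7 and 61.5, DMSO libraries 57.7 and 53.6, and all 4 LHCN libraries 55.5 to 86.8. The libraries labelled shCtrl were thus the only 2 of the 14 without it. MET region 40 (chr7:116445101-116445570) was missing at equal length from the same 2 alone, which had weak deposited peaks of fold 4.83 and 5.14. MET region 19 (chr7:116373967-116374621) was missing from them and from 1 QC6352 library.

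Set against DMSO, the libraries labelled shCtrl had lost 18 of 119 window regions (15.1%), beside 10.1% of all regions, and gained 1 (0.840%), beside 7.29% of all. Of the 15 MET regions 7 were among the losses, which left 4 and 3 MET peaks in those libraries, against 12 and 14 with DMSO. ALK region 82 (chr2:29970607-29971432) stayed but had 33.4 and 13.8 in the libraries labelled shCtrl, against 63.2 and 70.2 with DMSO and 75.6 to 94.2 in the other 10 libraries. It was the only window region shifted up by 20 points in both labelled hairpin pairs, of 41 found in all 6 lists, beside 1.71% of all such regions, and 0 shifted down, beside 1.16%. By the same rule the libraries labelled shKDM4B-813 had 1 of 42 regions up, beside 4.19% of all, and 2 down, beside 5.46%, which were ALK regions 22 and 80. Those labelled shKDM4B-814 had 3 of 46 up, beside 2.82%, among them IGF1R regions 23 and 47, and 0 down, beside 4.29%. Against DMSO the libraries labelled shCtrl had 0 of 46 up, beside 3.52%, and 3 down, beside 3.74%, which were ALK region 82, IGF1R region 47 and MET region 33.

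With groups taken from the peak names the losses outnumbered the gains in the windows, but the lost shares were near those of all regions. The sh813-named and shCtrl-named libraries are those labelled shCtrl and shKDM4B-814. Their comparison is therefore the labelled shKDM4B-814 comparison with gained and lost swapped, and is no separate result. The sh813-named libraries then had 8 of 106 window regions lost against the shCtrl-named ones (7.55%), beside 7.04% of all, and 1 gained (0.943%), beside 6.30% of all; MET regions 7, 19 and 40 were among the 8. The sh814-named libraries had 4 of 106 lost (3.77%), beside 3.26% of all, and 2 gained (1.89%), beside 6.21% of all, with no MET region. In both, 2 of 118 regions were lost (1.69%), beside 1.12% of all, and 0 gained, beside 0.203%. They were IGF1R region 39 (chr15:99358457-99358900), with 31.8 and 50.2 in the shCtrl-named libraries, and the weak IGF1R region 21. IGF1R region 39 was also absent at equal length from both QC6352 libraries, against 63.5 and 49.99 with DMSO, although a weak deposited peak in 1 of them kept it from being called lost. The shCtrl-named libraries, which are those labelled shKDM4B-814, had lost 7 of 118 regions against DMSO (5.93%), beside 5.31% of all. They had gained 2 (1.69%), beside 3.24%.

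By the 20-point rule, the sh813-named libraries had 0 of 46 window regions up against the shCtrl-named ones, beside 4.29% of all, and 3 down, beside 2.82%: ALK region 82 and IGF1R regions 23 and 47. These are again the counts of the labelled shKDM4B-814 comparison, with up and down swapped. The sh814-named libraries had 0 of 55 up, beside 2.87%, and 2 down, beside 2.82%, which were IGF1R region 19 and ALK region 80. In both, 0 of 41 went up, beside 0.158%, and 0 down, beside 0.207%, again without a test. The shCtrl-named libraries had 0 of 58 up against DMSO, beside 2.43%, and 1 down, beside 2.43%, which was ALK region 72.

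With DMSO in place of the hairpin controls, the libraries labelled shKDM4B-813 had lost 11 of 120 window regions (9.17%), beside 6.53% of all, and gained 1 (0.833%), beside 8.11% of all. All 4 libraries labelled with a KDM4B hairpin had lost 5 of 126 (3.97%), beside 2.74%, and gained 1 (0.794%), beside 1.25%. All 4 libraries named for sh813 or sh814 had lost 7 of 128 against DMSO (5.47%), beside 3.12%, and gained 0, beside 0.310%. The hairpin libraries come from another experiment than the DMSO libraries, and transduction and hairpin cannot be told apart here.

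The 4 regions that passed the line test for RH30 had a peak in all 6 hairpin libraries. These libraries were part of the RH30 side of that test, so this presence was largely fixed by it and is no separate result. In the hairpin libraries IGF1R region 30 ran from 90.6 to 96.0 and IGF1R region 13 from 74.6 to 95.0. IGF1R region 23 ran from 29.0 to 72.6 there and ALK region 22 from 26.3 to 77.7. Some sites with a peak in LHCN libraries too were also in all 6. Of these FGFR4 region 16 ran from 79.2 to 97.5, ALK region 7 from 70.1 to 95.4, ALK region 33 from 70.0 to 95.1 and CXCR4 region 8 from 51.0 to 74.3. In ALK region 7 the lowest hairpin pair, 75.6 and 70.1, was the one labelled shKDM4B-813 and named sh814. It lay above both QC6352 libraries.

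**Figure D5:**
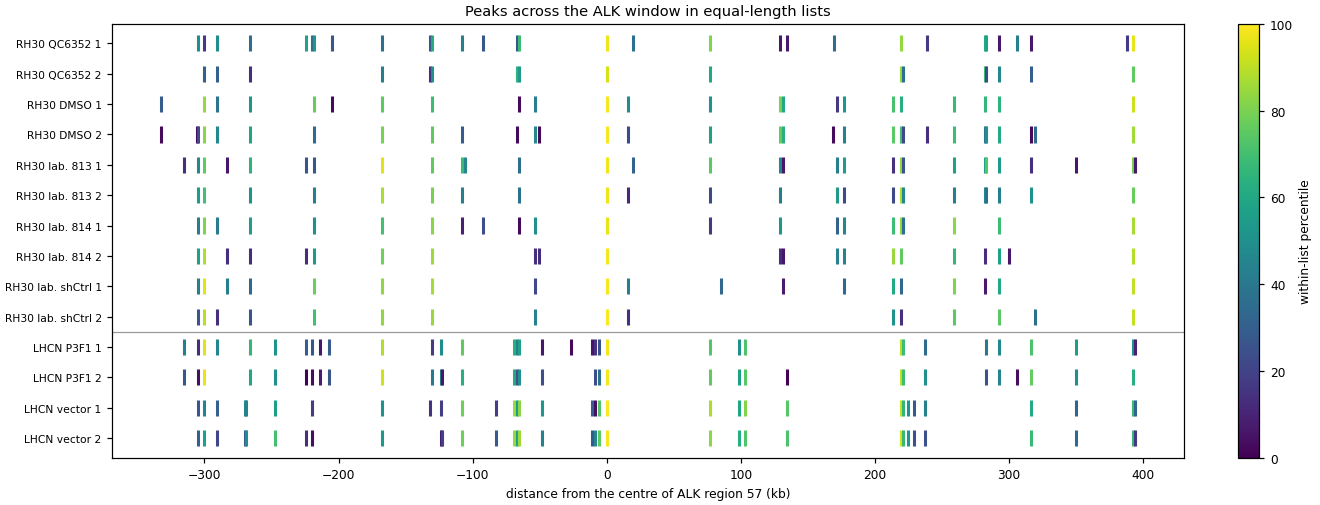
Peaks (ticks, coloured by within-list percentile, 100 strongest) across the ALK window in lists of 93488, by distance from the centre of ALK region 57 (x axis, kb), 1 row per library with hairpin libraries by label. The strongest site, at 0, is in all 14 libraries, and the QC6352 rows lack the light tick of region 7, near the left end, that the DMSO and PAX3-FOXO1 rows have.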

How the data were processed

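The submitters' processing notes name BWA 0.7.12-r1039, Picard 1.65, SAMtools 1.3.1, MACS2 2.1.1 and build hg19; settings and read depth are not stated there, and the total of a peak list is no depth. The authors deposited 1 narrowPeak list per library. Its score per peak came from the authors' peak caller and was not used. The deposited fold is a ratio over background and only described or ranked peaks within a list. Peaks were ranked by the deposited −log10 q; the deposited −log10 p was not used. The lowest −log10 q of the lists was 2.00 to 2.59, so absence means no peak past that limit.

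Lists were cut to the shortest of an experiment (170390 for LHCN, 105136 for the compound, 93488 for the hairpins and for comparisons across experiments), ranked by −log10 q, then fold, then position. All cut lists were merged into 335269 regions. The lines were compared by Fisher's exact test on presence with a threshold of 0.05; other comparisons had no test. The code was tested on simulated data. Python 3.11.15, numpy 2.4.6, pandas 2.3.3, SciPy 1.17.1 and matplotlib 3.10.9 were used.

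The receptor genes, windows and tests were chosen with earlier results of these data known. Within each window, the rule named the 2 strongest regions of each line and up to 3 called regions per comparison and direction with the highest lowest percentile, some of them printed. ALK regions 7, 33 and 35 and others not met by it were chosen after their values were seen. Other receptor genes were not used here, as they needed an annotation of hg19. Replicate numbers came from the sample titles and mark no shared culture or day.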

Additional observations from a re-analysis of the deposited data

Results flagged for a closer look

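Of 23 groups of values looked at with Dixon's test for a library far from the rest, 3 had one, and chance alone gives about 1 in 20. In the FGFR4 window the strongest peak of QC6352 replicate 2 was at the 88.3 percentile, against 93.6 to 98.6 in the other 9 RH30 libraries. In the MET window the strongest peak of QC6352 replicate 1 was at 95.4, against 97.2 to 99.0 in the other 9. In the FGFR4 window LHCN vector replicate 1 had 9 peaks at equal length, against 8 in each of the other 3 LHCN libraries. With those 3 tied, any differing count would have been flagged, so this flag carries no weight. The rate of 1 in 20 does not apply to it. Whether the strength of a library's whole list moved with these values was not tested.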

How the results depend on the processing

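Counts are of regions in the 6 windows, gained then lost. The number of regions tested and the share called over all regions also change with the setting. A higher or lower count alone therefore shows no stronger or weaker difference in the windows. Under settings other than single libraries left out, 61 values stayed within 1.5 times of the reported one and 45 did not. The 61 include 14 with the replicate number as a block, which calls by presence do not use. The 45 include 2 from each of the 2 settings where no region could pass, and the regrouped hairpin lists. The tally is therefore no measure of how firm the results are. RH30 against LHCN (4 and 24) gave 1 and 46 with the lists as deposited, 1 and 63 with peaks of −log10 q of 10 or more, 6 and 9 with the 50000 strongest peaks, and 2 and 20 when peaks had to cover 50% of a region. The untreated libraries alone, without a test, gave 17 and 39, with no share over all regions given here. No region could pass the test without the PAX3-FOXO1 libraries (0 and 0, smallest adjusted p 0.109) or without the hairpin libraries (0 and 0, smallest adjusted p 0.214), settings with fewer samples. PAX3-FOXO1 (21 and 16) gave 5 of 69 gained with the 50000 strongest peaks, beside 11.2% of all regions. QC6352 (5 and 16) gave 8 of 189 gained as deposited, beside 6.91% of all. With −log10 q of 10 or more it gave 3 of 84 gained, beside 4.46%.

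By the labels, shKDM4B-813 (13 and 2) gave 6 lost as deposited, 1 lost with −log10 q of 10 or more, 5 gained with the 50000 strongest and 1 lost with 50% cover. Labelled shKDM4B-814 (8 and 1) gave 8 lost as deposited, 0 with −log10 q of 10 or more and with the 50000 strongest, 4 with 50% cover and 2 when regions were merged from the compared libraries alone. Both hairpins (6 and 0) gave 5 lost as deposited and 3 gained with the 50000 strongest. Labelled shCtrl against DMSO (1 and 18) gave 5 gained as deposited and 0 with either stricter choice of peaks. With DMSO as the control the labelled hairpins gave 1 and 11 (shKDM4B-813), 2 and 7 (shKDM4B-814) and 1 and 5 (both). With groups from the peak names, chosen after seeing the data, they gave 1 and 8, 2 and 4, and 0 and 2 (0 and 7 for both with DMSO as the control), and shCtrl against DMSO 2 and 7. Apart from the settings with fewer samples, the cause of these changes was not tested.

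Leaving out 1 library gave 3 to 4 and 22 to 24 for the lines, which were called by Fisher's exact test. For the other comparisons it loosens the rule of presence. Their counts were 25 to 31 and 18 to 33 for PAX3-FOXO1, 7 to 24 and 20 to 36 for QC6352, 15 to 24 and 5 to 9 for shKDM4B-813, 10 to 23 and 2 to 8 for shKDM4B-814, 6 to 12 and 0 to 6 for both hairpins, and 2 to 10 and 22 to 34 for shCtrl against DMSO. With the replicate number as a replicate block the lines gave 3 and 22. Every comparison of 2 against 2 gave the same counts as without it, as a call by presence does not use the block. Peak lists without read counts cannot show a partial change in a region, and 2 libraries a group cannot reach a p under 0.333.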
